A study of Canis lupus familiaris with 34 samples.

Results

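Cathepsins and legumain are the proteases that digest protein inside endosomes and lysosomes. The set comprised 9 genes, CTSB, CTSC, CTSD, CTSH, CTSK, CTSL, CTSS, CTSZ and LGMN, chosen by symbol. A probe set was taken as a member where the annotation of the array gave it exactly 1 gene symbol and that symbol was on the list. This rule found 18 probe sets for 8 genes, among 42860 probe sets and 15115 genes with a probe set of 1 symbol. No probe set carried the symbol CTSL alone, and CTSL was not analysed here. LGMN was read by 5 probe sets, CTSC by 1 and each other gene by 2. The probe set with the highest mean over the 34 arrays stood for the gene. The only CTSC probe set carries a suffix that marks possible matches to several transcripts.

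RNA levels were read on the Canine_2 array of Affymetrix, with 1 array for each named dog, to ask how canine hemangiosarcoma, a malignant tumor of blood vessel-forming cells, differs from a non-malignant splenic lesion and from other tumors. The groups were cell lines from 10 hemangiosarcomas, of which 6 were from golden retrievers. The other 4 were from a Rottweiler (Joey), a golden retriever x Great Pyrenees (DD1), a Portuguese Water Dog (ChadP9) and a Dalmatian (Dal4). Other tumors were 5 osteosarcoma lines (OSCA20, OSCA23, OSCA59, OSCA75, OSCA71), primary cells of 6 diffuse large B cell lymphomas (DLBCL), 6 T-zone lymphomas (TZL), 1 marginal zone lymphoma (MZL), 1 acute lymphoblastic leukemia (ALL) and 2 chronic lymphocytic leukemias (CLL), all from golden retrievers except the ALL, from a golden retriever mix. Cultures from 3 splenic hematomas, of the dogs Pippin (golden retriever), Baxter (Standard Poodle) and Kylie (Keeshond), were the non-malignant reference. Cultured cells were cryopreserved at early passage and carried no transgene or treatment label, and each line or culture stands for 1 dog. The hemangiosarcoma dogs Frog and Journey were related. Leukemia and lymphoma cells were not cultured, so culture and tumor type cannot be told apart where those cells are set against lines.

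Most cathepsins are papain-like cysteine proteases. They are made as inactive precursors, sorted to the lysosome and activated there by cleavage. CTSD is an aspartic protease, and LGMN, the asparaginyl endopeptidase, cuts after asparagine and helps to process several cathepsins. CTSB, CTSD, CTSH and CTSZ are found in most tissues, whereas CTSS is best known from antigen-presenting cells, where it trims the invariant chain (CD74) off MHC class II, and CTSK from osteoclasts, where it degrades collagen. CTSC removes dipeptides and activates the granule serine proteases of cytotoxic and myeloid cells. In tumors, cathepsins come from malignant cells and from macrophages, and some are secreted and act on the matrix.

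All levels are log2 values from robust multi-array averaging (RMA), which removes background, brings the arrays to the same distribution and combines the probes of each set into 1 value. The medians of the arrays ranged from 5.57 to 5.77, and a level near or below them was weak. A difference is the mean log2 level in the first group minus that in the second. Hybridization controls averaged 8.95 to 9.54 in hemangiosarcoma lines, 9.66 to 10.57 in osteosarcoma lines and 9.15 to 9.92 in hematoma cultures. ChadG4 and Dal4 stood apart among the hemangiosarcoma lines, with a mean correlation to the other lines over all probe sets of 0.956 and 0.955, against 0.965 to 0.975 for the other 8. Of 11 endothelial markers, 5 (PECAM1, CDH5, TEK, EMCN and ESAM) lay above the array median in no hemangiosarcoma line, while KDR did in 8 of the 10 lines, CLDN5 in 5, TIE1 and FLT1 in 3 each and VWF and ENG in 1 each. In the same lines 10 fibroblast and mural markers averaged 9.87 to 11.75, against 10.42 to 12.48 in osteosarcoma lines and 10.89 to 11.90 in hematoma cultures. Of 6 osteoblast markers, IBSP, RUNX2, SPP1 and DMP1 lay above the array median in no osteosarcoma line, BGLAP in 3 of the 5 and ALPL in 2. In bulk RNA, fewer cells of a type and less RNA per cell cannot be told apart.

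**Figure D1:**
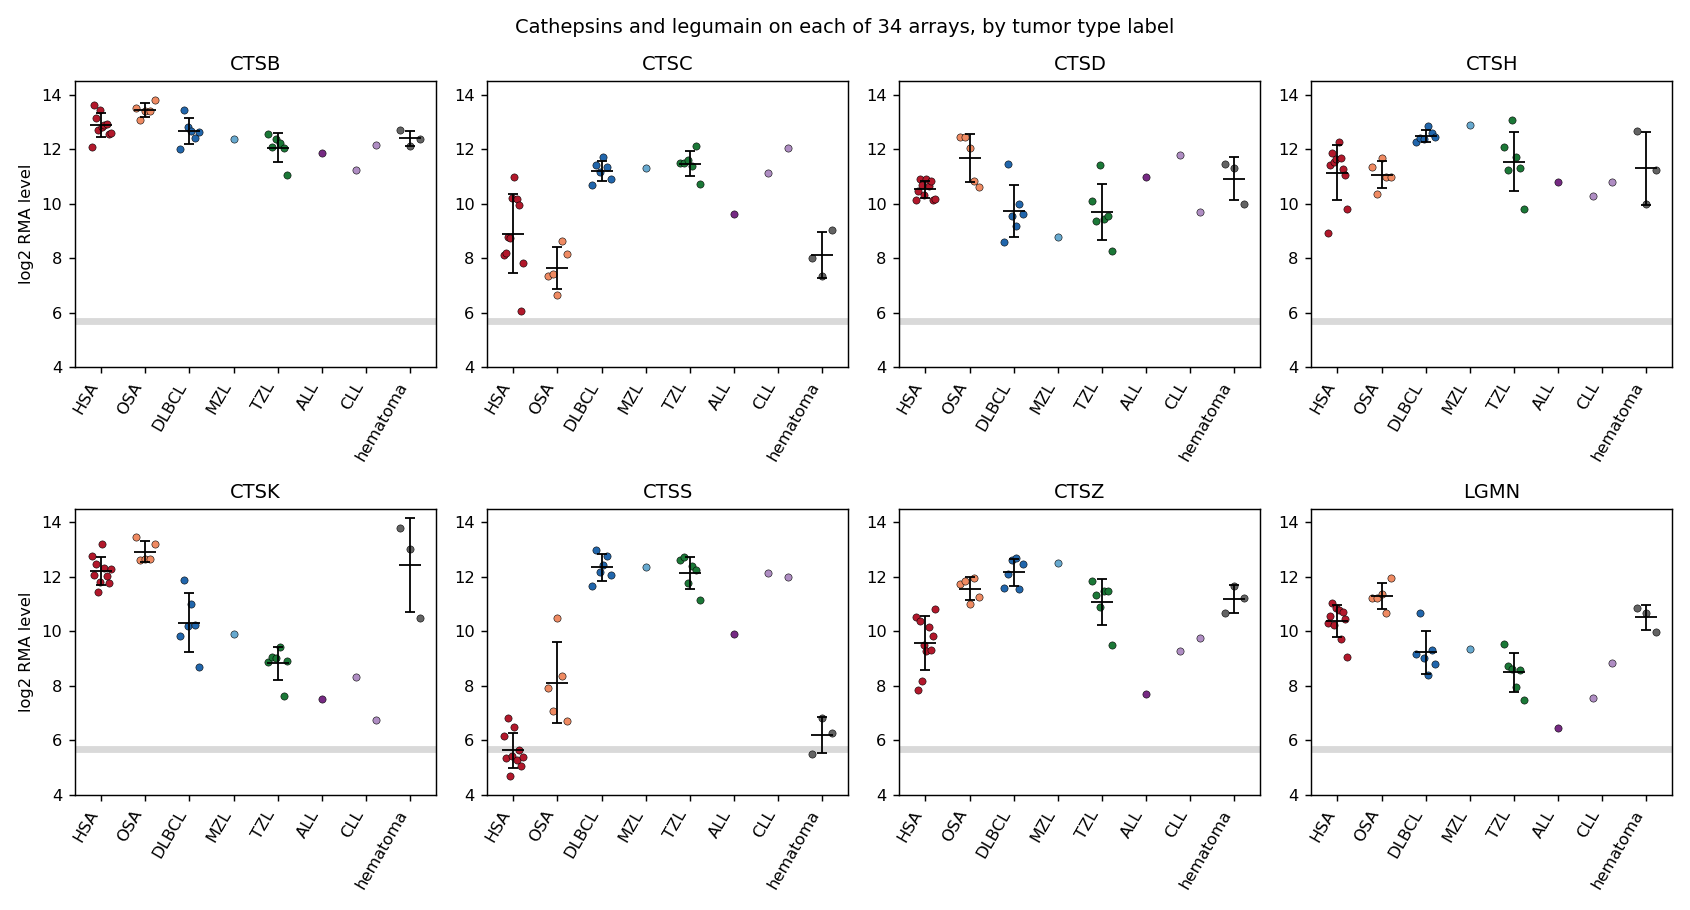
Log2 RMA level of the 8 genes on each of the 34 arrays, by tumor type label (HSA, hemangiosarcoma; OSA, osteosarcoma). Points are arrays, black bars the mean and SD of labels with 3 or more arrays, and the gray band the range of the array medians (5.57 to 5.77). CTSS lies near the band in hemangiosarcoma and hematoma cells and far above it in leukemia and lymphoma cells, while CTSK and LGMN run the other way.

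CTSS had the widest range of the set. The 6 golden retriever hemangiosarcoma lines had CTSS levels of 4.70 (Frog) to 6.82 (ChadG8), with a median of 5.79. Lines of other breeds had 5.29 (Joey), 5.65 (DD1), 5.05 (ChadP9) and 5.40 (Dal4). Only 3 of the 10 lines read CTSS above the median of their array. Osteosarcoma lines had CTSS levels of 7.93 (OSCA20), 7.07 (OSCA23), 10.49 (OSCA59), 8.37 (OSCA75) and 6.70 (OSCA71), all above the array median. The hematoma cultures had 5.51 (Pippin), 6.81 (Baxter) and 6.28 (Kylie), within the range of the hemangiosarcoma lines. In lymphomas CTSS was 11.15 to 12.97, in the CLL arrays 12.15 and 11.99 and in the ALL array 9.92. By mean level the order was MZL, DLBCL, TZL, CLL, ALL, osteosarcoma, hematoma and hemangiosarcoma. Neighbors in this order were separated by less than the larger of their SDs from MZL to CLL, and again for hematoma and hemangiosarcoma. The steps from CLL to ALL, ALL to osteosarcoma and osteosarcoma to hematoma were larger than those SDs.

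CTSK and LGMN stood at the other end. CTSK, the collagen-degrading protease, had levels of 11.44 (Frog) to 13.22 (Tucker) in the 10 hemangiosarcoma lines, with a median of 12.17. In osteosarcoma lines CTSK was 13.46 (OSCA20), 12.60 (OSCA23), 12.67 (OSCA59), 12.67 (OSCA75) and 13.19 (OSCA71). In hematoma cultures it was 13.78 (Pippin) and 13.01 (Baxter), but 10.48 in Kylie, which lay below every hemangiosarcoma line. DLBCL arrays had CTSK levels of 8.70 to 11.90 and TZL arrays of 7.65 to 9.43. The MZL array had 9.90, the ALL array 7.53 and the CLL arrays 8.34 and 6.77. The 3 cultured labels did not differ from their neighbors beyond their spread, and the gap below them, from hemangiosarcoma to DLBCL, did. LGMN had levels of 9.07 (Dal4) to 11.03 (ChadG8) in hemangiosarcoma lines and of 11.22, 11.24, 11.39, 10.67 and 11.97 in OSCA20, OSCA23, OSCA59, OSCA75 and OSCA71. Hematoma cultures had LGMN levels of 10.87 (Pippin), 10.67 (Baxter) and 10.00 (Kylie). Lymphoma arrays had 7.48 to 10.67, CLL arrays 7.56 and 8.84, and the ALL array 6.44. The lowest LGMN value of all 34 arrays was thus that of the ALL.

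CTSZ, a carboxypeptidase also called cathepsin X, varied between labels within both the cultured and the uncultured cells, and some of their ranges overlapped. Golden retriever hemangiosarcoma lines had CTSZ levels of 7.85 (ChadG6) to 10.52 (ChadG4), with a median of 9.38. Lines of other breeds had 10.16 (Joey), 9.30 (DD1), 9.81 (ChadP9) and 10.81 (Dal4). Osteosarcoma lines had 11.75 (OSCA20), 11.85 (OSCA23), 11.02 (OSCA59), 11.97 (OSCA75) and 11.24 (OSCA71), higher than each hemangiosarcoma line. Hematoma cultures had CTSZ levels of 10.67 (Pippin), 11.67 (Baxter) and 11.23 (Kylie), of which only Pippin's was within the range of the hemangiosarcoma lines. DLBCL arrays had 11.57 to 12.69 and TZL arrays 9.49 to 11.84, with 12.49 for the MZL, 7.71 for the ALL and 9.27 and 9.76 for the CLL. The steps from DLBCL to osteosarcoma, TZL to hemangiosarcoma and CLL to ALL exceeded the larger SD.

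CTSC, the dipeptidyl peptidase, varied more than any other member among hemangiosarcoma lines (SD 1.46, n = 10). Its level was 6.06 in ChadP9, and 10.19, 10.98, 10.16 and 9.94 in Journey, Tucker, Joey and DD1. The other lines had CTSC levels of 7.81 to 8.79. The osteosarcoma lines had 7.37, 7.41, 6.64, 8.62 and 8.16 in OSCA20, OSCA23, OSCA59, OSCA75 and OSCA71, and hematoma cultures 8.02, 7.35 and 9.03 in Pippin, Baxter and Kylie. Every lymphoma and CLL array lay between 10.68 and 12.11, and the ALL array at 9.61.

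CTSB, CTSD and CTSH were read far above the array median on all 34 arrays by the probe set that stood for each. CTSB, the most studied cathepsin of tumors, had levels of 12.08 (ChadG4) to 13.63 (ChadG6) in hemangiosarcoma lines, 13.06 to 13.79 in osteosarcoma lines, up to 13.44 (median 12.66) in DLBCL, 11.04 to 12.57 in TZL and 12.12 to 12.69 in hematoma cultures. CTSD had levels of 10.12 to 10.92 in hemangiosarcoma lines, where its spread was small (SD 0.32, n = 10). The osteosarcoma lines were divided for CTSD, with 12.46, 12.44 and 12.03 in OSCA20, OSCA23 and OSCA59 and 10.83 and 10.62 in OSCA75 and OSCA71. Hematoma cultures had CTSD levels of 11.45 (Pippin), 11.32 (Baxter) and 10.00 (Kylie). CTSH, mainly an aminopeptidase, had levels of 11.07 to 12.27 in 8 hemangiosarcoma lines and of 8.92 and 9.80 in ChadG4 and Dal4. DLBCL arrays spanned only 12.28 to 12.85 for CTSH, TZL arrays 9.79 to 13.07, and the hematomas had 12.67, 9.98 and 11.24 in Pippin, Baxter and Kylie.

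The hemangiosarcoma lines were first set against the hematoma cultures, the comparison of malignant cells with cells of a non-malignant splenic lesion. None of the 8 genes passed an adjusted p of 0.1 (limma, Benjamini-Hochberg over 23292 probe sets tested). Over all probe sets, 62 passed (0.266%). At an unadjusted p under 0.05 there was 1 gene, CTSZ, and the share of all probe sets at that level was not counted. The CTSZ mean was 9.58 ± 0.98 (SD, n = 10) in hemangiosarcoma lines and 11.19 ± 0.50 (SD, n = 3) in hematoma cultures. The difference for CTSZ was -1.61 (SE 0.55, limma adjusted p 0.382), and its second probe set gave -1.89 (adjusted p 0.339). The other 7 differences lay between -0.57 for CTSS and 0.77 for CTSC, and the groups overlapped for every gene. The median difference of the 8 genes was -0.18, against 0.02 over all probe sets tested. CTSK differed by -0.20 and CTSH by -0.16 over all arrays, but by 0.47 and 0.53 without Pippin, and CTSK by 0.09 without Baxter, none of them called. CTSC ranged from 0.37 (without Baxter) to 1.21 (without Kylie), and CTSS from -0.91 (without Pippin) to -0.27 (without Baxter). With 3 hematoma arrays, differences of the size seen for CTSS (SE 0.40) or CTSC (SE 0.81) could not be told from 0.

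**Figure D2:**
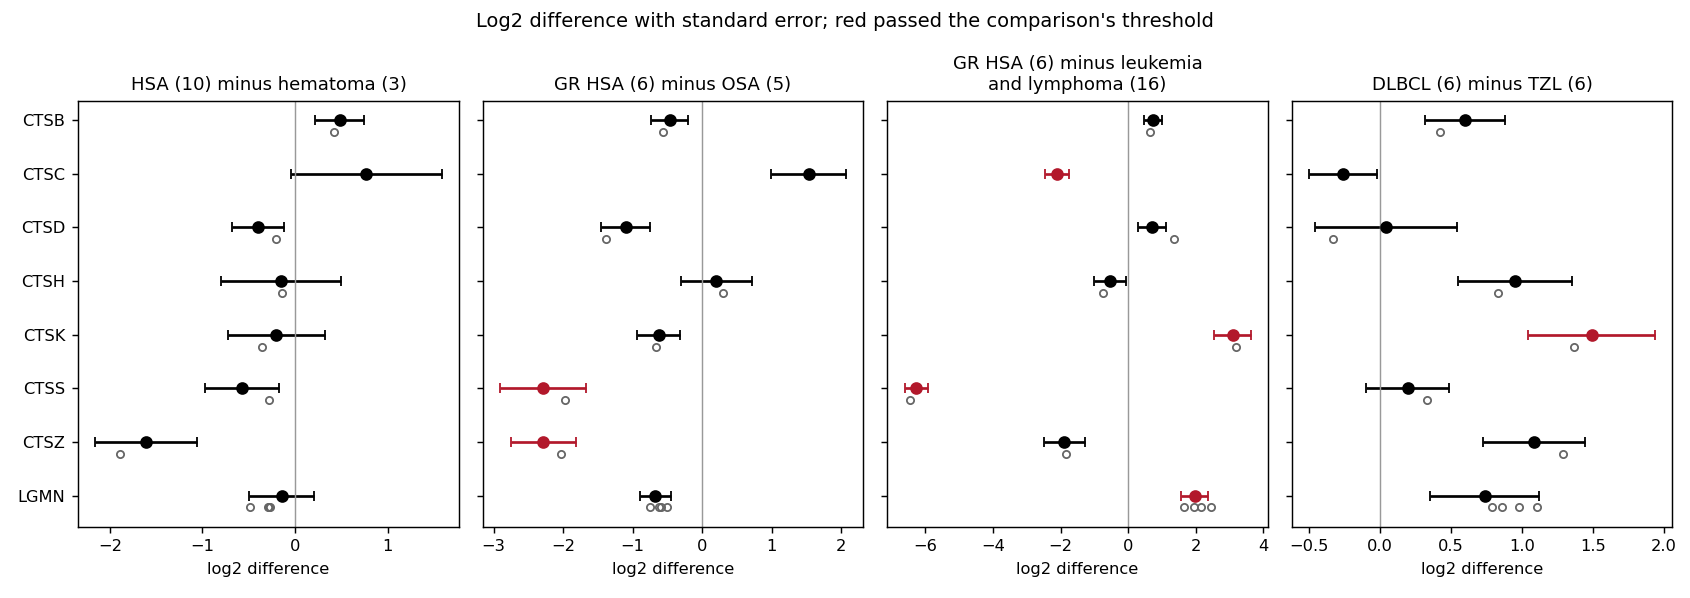
Log2 difference in level between groups for each gene in the 4 comparisons (the group named first minus the group named second; GR, golden retriever; number of arrays in parentheses). Filled points are the probe set with the highest mean, with its standard error, open circles the other probe sets of the gene, and red marks a limma adjusted p below the threshold of that comparison. CTSS and CTSZ are red against osteosarcoma, CTSC, CTSK, CTSS and LGMN against leukemia and lymphoma, and CTSK in DLBCL against TZL.

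Golden retriever hemangiosarcoma lines were next set against the osteosarcoma lines, where both sides are cultured tumor cells of 1 breed. CTSS and CTSZ were lower in hemangiosarcoma, and no member was higher at an adjusted p of 0.05. Of 22128 probe sets tested, 3619 passed (16.4%), with 2094 of them higher (9.46%) and 1525 lower in hemangiosarcoma (6.89%), the background for 2 of 8 genes. The CTSZ mean was 9.28 ± 1.10 in the 6 hemangiosarcoma lines, against 11.57 ± 0.41 in the 5 osteosarcoma lines (SD), with no overlap. The difference for CTSZ was -2.28 (SE 0.47, limma adjusted p 0.00919), a 4.87-fold lower level, and -2.03 by its second probe set (adjusted p 0.0238). The CTSS mean was 5.82 ± 0.80 in hemangiosarcoma, against 8.11 ± 1.49 in osteosarcoma (SD over the same lines). The difference for CTSS was -2.29 (SE 0.62, limma adjusted p 0.0274), and the ranges met where ChadG8 (6.82) exceeded OSCA71 (6.70). Without OSCA59, the line with the highest CTSS level, CTSS was still called, at -1.70 (adjusted p 0.0389), but its adjusted p was 0.0570 without ChadG6, 0.0612 without Frog, 0.0562 without Journey and 0.0597 without OSCA75. CTSZ was called whichever line was left out.

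The remaining members did not pass against osteosarcoma. CTSD differed by -1.10 (limma adjusted p 0.0520), and its second probe set, at -1.39, passed (adjusted p 0.0410). Without OSCA71 or without OSCA75, the 2 osteosarcoma lines of lower CTSD, the call was made on the first probe set too (adjusted p 0.0180 and 0.0358). LGMN differed by -0.67 (adjusted p 0.0649), with values of -0.51 to -0.75 over its other probe sets. CTSC was the member with the largest difference upward, at 1.53 (adjusted p 0.0719). CTSK, at -0.62, CTSB, at -0.47, and CTSH, at 0.20, had adjusted p values of 0.180, 0.234 and 0.820. The median difference over the 8 genes was -0.65, against 0.01 over all probe sets tested. Hybridization controls were lower in every hemangiosarcoma line than in every osteosarcoma line (8.95 to 9.54 against 9.66 to 10.57), and their part in these differences was not tested.

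Macrophage RNA was read alongside CTSS and CTSZ. The mean level of 15 macrophage markers was 4.90 to 5.21 in hemangiosarcoma lines, 5.02 to 5.26 in osteosarcoma lines and 4.84 to 5.10 in hematoma cultures. In hemangiosarcoma and in osteosarcoma lines 10 of the 15 markers lay above the array median on no array, among them CSF1R, LYZ, CD163, TYROBP and SPI1. CD14, C1QA and MRC1 lay above it on every one of these arrays, CD68 on 9 of 10 hemangiosarcoma and 4 of 5 osteosarcoma arrays, and MARCO on 5 and 2. OSCA59, with the highest CTSS level of any cultured array, also had the highest list mean of the osteosarcoma lines (5.26), and LYZ did not exceed 3.92 in any of them. All 15 had a probe set. In DLBCL the list mean was 6.76 to 8.18, in TZL 6.61 to 8.60, and in the MZL, ALL and CLL arrays 7.60, 6.67, 7.49 and 7.50. CD163 lay below the array median on all 6 DLBCL, all 6 TZL and all 4 MZL, ALL and CLL arrays, and LYZ above it on each of these arrays. MSR1 lay above the array median on 1 of 6 DLBCL arrays and on no TZL, MZL, ALL or CLL array. FCGR1A lay above it on 2 of 6 DLBCL arrays and no TZL array, but on each MZL, ALL and CLL array. C1QB lay above it on no ALL or CLL array. In lymphoma and leukemia the list mean, though not every marker, and CTSS were thus high together. The part of macrophage RNA in the CTSS levels was not tested.

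**Figure D3:**
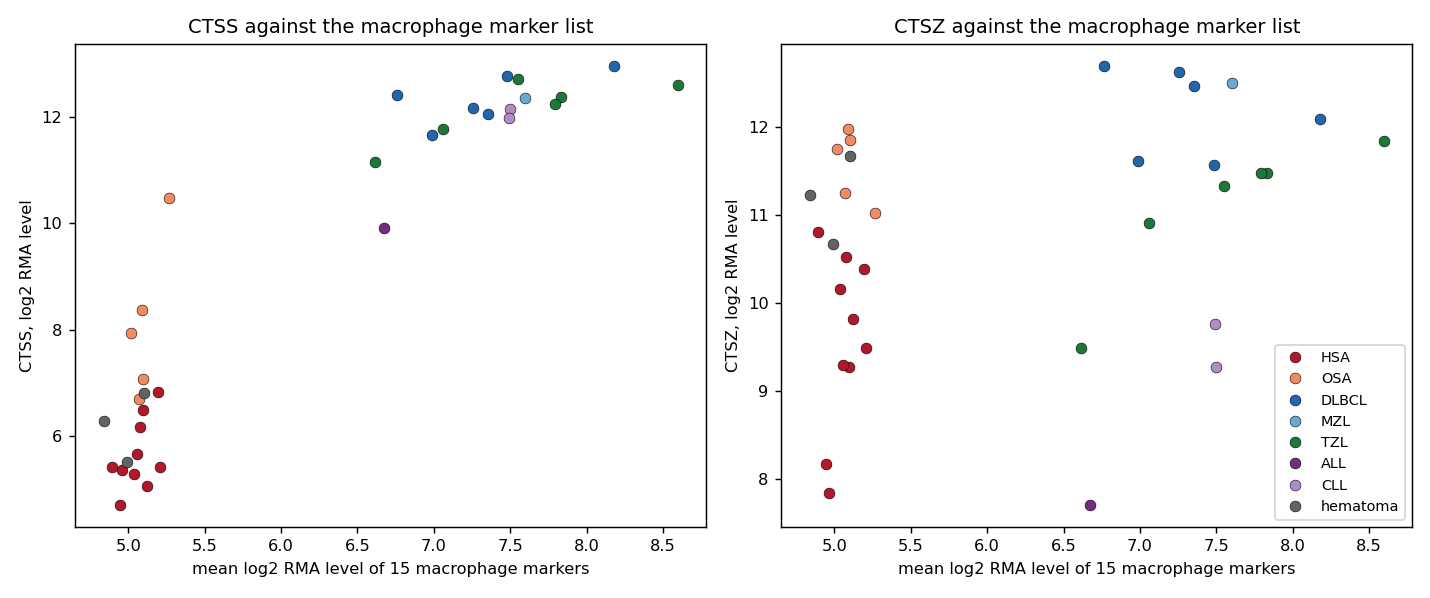
Log2 RMA level of CTSS (left) and CTSZ (right) against the mean log2 level of 15 macrophage markers, 1 point per array, colored by tumor type label (HSA, hemangiosarcoma; OSA, osteosarcoma). Among cultured cells the marker mean spans 4.84 to 5.26, CTSS 4.70 to 10.49 and CTSZ 7.85 to 11.97. In hemangiosarcoma and osteosarcoma lines 10 of the 15 markers lie above the array median on no array. The part of macrophage RNA in these levels was not tested.

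Against leukemia and lymphoma, golden retriever hemangiosarcoma lines differed in 4 of the 8 genes at an adjusted p of 0.001. CTSS and CTSC were lower, and CTSK and LGMN were higher. Of 24551 probe sets tested, 6397 passed (26.1%), 3592 of them higher (14.6%) and 2805 lower (11.4%). The median difference over all probe sets tested was -0.125 and over the 8 genes 0.09. This comparison shares its 6 hemangiosarcoma arrays with that against osteosarcoma. Hybridization controls were lower in each of the 6 lines (9.18 to 9.54) than in each leukemia and lymphoma array (9.78 to 11.12), and the 3′ minus 5′ actin control was 0.75 to 1.90 in the lines and 3.02 to 4.63 in the ALL and CLL arrays, and their part in the differences was not tested.

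CTSS showed the largest difference of the set. Its mean was 5.82 ± 0.80 in the 6 hemangiosarcoma lines, against 12.09 ± 0.73 in the 16 leukemia and lymphoma arrays (SD), with no overlap, a difference of -6.27 (SE 0.34, limma adjusted p 2.8e-13). The second CTSS probe set gave -6.44. No fold is given for CTSS, which lay above the array median on only 3 of the 6 lines, so that its level there was not well resolved. For CTSC the means were 9.17 ± 1.16 in the lines, against 11.26 ± 0.60 in leukemia and lymphoma (SD), a difference of -2.09 (SE 0.36, limma adjusted p 3.51e-05). Journey (10.19) and Tucker (10.98) exceeded the ALL array (9.61) for CTSC, and Tucker also exceeded Benson (10.68), Fire (10.72) and Chieftain (10.90).

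For CTSK the means were 12.30 ± 0.65 in the lines, against 9.21 ± 1.32 in leukemia and lymphoma (SD), a difference of 3.08 (SE 0.53, limma adjusted p 4.48e-05) or 8.48-fold. The ranges met at the DLBCL array Cooper (11.90), which exceeded Frog (11.44) and Journey (11.82). LGMN had a mean of 10.62 ± 0.31 in the lines, against 8.66 ± 0.98 in leukemia and lymphoma (SD). Its difference was 1.96 (SE 0.39, limma adjusted p 2.22e-04), and the other 4 LGMN probe sets were also higher and called, by 1.66 to 2.44. Cooper, at 10.67, was again the array that overlapped with the lines, and the LGMN call was lost by a small margin without ChadG8 (adjusted p 0.00101). CTSS, CTSC and CTSK were called whichever array was left out.

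CTSZ, at -1.89 (SE 0.61, limma adjusted p 0.0117), CTSB, at 0.72 (0.0269), CTSD, at 0.71 (0.154), and CTSH, at -0.54 (0.346), did not pass. The second CTSD probe set gave a larger difference, 1.37, and did not pass either. For CTSZ the uncultured cells were themselves divided, since the ALL array (7.71) lay below the range of the golden retriever lines, the CLL arrays (9.27 and 9.76) and the TZL array Fire (9.49) within it, and the other lymphomas above it. Set against the 13 lymphomas alone, CTSZ was lower by 2.41 and passed (adjusted p 9.09e-05). When osteosarcoma was added to the other tumors, to give 21, only CTSS of the 8 genes passed (difference -5.32), and CTSC (-1.23), CTSK (2.20) and LGMN (1.34) had adjusted p values of 0.168, 0.0310 and 0.0668. The fibroblast and mural list averaged 10.04 to 11.75 in the golden retriever lines, 5.54 to 8.55 in DLBCL and 5.45 to 7.04 in TZL. Its part in the CTSK and LGMN differences was not tested.

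DLBCL, a B cell tumor, and TZL, a T cell tumor, were compared as uncultured lymphoma cells. CTSK was higher in DLBCL at an adjusted p of 0.05, and the other 7 genes did not pass. Of 21763 probe sets tested, 4018 passed (18.5%), 1989 of them higher (9.14%) and 2029 lower (9.32%) in DLBCL. CTSK averaged 10.32 ± 1.08 (SD, n = 6) in DLBCL and 8.82 ± 0.61 (SD, n = 6) in TZL, a difference of 1.49 (SE 0.45, limma adjusted p 0.0324) or 2.81-fold, and 1.37 by the second probe set (adjusted p 0.0410). The DLBCL array Chieftain (8.70) lay within the TZL range and the other 5 DLBCL arrays above it. The CTSK call stood near the threshold. Its adjusted p was 0.0502 to 0.0681 without any of Cooper, Sally, Kaycee, Snuggles, Newman, Niki, Thunder or Fire.

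CTSZ was 1.09 higher in DLBCL (SE 0.36, limma adjusted p 0.0502), and its second probe set passed at 1.29 (adjusted p 0.0460). CTSH, at 0.95 (0.119), LGMN, at 0.74 (0.216), CTSB, at 0.60 (0.159), CTSS, at 0.20 (0.725), CTSD, at 0.04 (0.969), and CTSC, at -0.26 (0.532), had adjusted p values above 0.05. The fifth LGMN probe set passed at 1.10 (adjusted p 0.0321). The median difference over the 8 genes was 0.67, against 0.04 over all probe sets tested. Fire had the lowest TZL level of each of the 8 genes except CTSK. Cooper had the highest DLBCL level of CTSB, CTSD, CTSK, CTSS and LGMN, and Kaycee that of CTSC, CTSH and CTSZ. The part of these arrays in the median difference was not tested. The 3′ minus 5′ actin control, a possible sign of RNA integrity, differed among these arrays. It was -1.05 to -0.79 in Newman, Niki, Rose and Shilo, but 3.11 in Thunder and 2.51 in Fire, and in DLBCL 0.18 to 1.51 except 3.21 in Chieftain. Without Chieftain, Thunder and Fire, a choice made after seeing the data, CTSK differed by 1.54 (adjusted p 0.0201) and CTSZ by 0.73 (adjusted p 0.129). Cooper had the highest macrophage list mean (8.18) and the highest CTSK level of the DLBCL arrays. Kaycee had the lowest list mean of the DLBCL arrays (6.76) and their next highest CTSK level (11.02). Newman had the highest list mean of all (8.60) with a CTSK level of 8.89. The part of macrophage RNA in the CTSK levels was not tested.

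Among the 10 hemangiosarcoma lines, 28 pairs of members were correlated. None passed at an adjusted p of 0.05. CTSK and CTSS gave the highest Pearson correlation (r = 0.82, permutation p 0.00393, adjusted p 0.0917; Spearman rho = 0.75, permutation p 0.0178, adjusted p 0.166), and r was 0.69 without Tucker and Frog. CTSD and CTSH gave r = 0.72 (permutation p 0.00655, adjusted p 0.0917; rho = 0.77, permutation p 0.0121, adjusted p 0.166), and 0.72 without ChadP9 and ChadG4. CTSH and CTSK gave r = -0.09 over the 10 lines (permutation p 0.807, adjusted p 0.903) and 0.80 without ChadG4 and Dal4, the 2 lines with the lowest CTSH levels. CTSK and CTSS lie next to each other in the dog genome, with 0 protein-coding genes between them in the RefSeq gene table. CTSK lay above the array median in all 10 lines and CTSS in 3. By the second CTSS probe set only ChadG8 (6.20) lay above it, and Tucker, the line highest for CTSK, had 4.74. The correlation was not run with that probe set.

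Each member was set against 11279 genes for likeness over the 34 arrays, as a description, since the arrays share the split between cultured and uncultured cells. CTSS was most like TAP1 (r = 0.96), the peptide transporter of MHC class I, and the immunoproteasome subunits PSMB8 (r = 0.96) and PSMB9 (r = 0.96). TAP1 levels were 7.16 to 8.60 in the 10 hemangiosarcoma lines, 8.26 to 9.12 in osteosarcoma lines and 7.81 to 8.21 in hematoma cultures, and PSMB8 levels were 4.17 to 5.18, 5.58 to 6.67 and 4.98 to 5.93 in the same groups. The TAP1 ranges of hemangiosarcoma and osteosarcoma lines overlapped. Those of PSMB8 did not, nor did those of PSMB9 (5.50 to 7.32 against 7.40 to 9.39). Among hemangiosarcoma lines, Joey had the highest TAP1 level (8.60) with a CTSS level of 5.29. Tucker had the next highest (8.56) with a CTSS level of 6.48, and Frog the lowest level of both (7.16 and 4.70). CTSK was most like TRIP6 (r = 0.93), GPNMB (r = 0.90) and SASH1 (r = 0.88), of which GPNMB is a lysosomal and melanosomal glycoprotein. CTSC was most like CLEC2B, LYSMD2 and SEMA4D (r = 0.91, 0.89 and 0.87). LGMN was most like FNDC3B (r = 0.85), LOC476816 (r = 0.85) and CTSK itself (r = 0.84), and CTSB most like LGMN (r = 0.78), SNX18 (r = 0.77) and DYNLRB2 (r = 0.73). CTSZ was most like DNASE2 (r = 0.76), the acid DNase of lysosomes, NR1H3 (r = 0.72) and NOP9 (r = 0.71). CTSD was most like NHLRC3, the proton pump subunit gene ATP6V1D and the serine carboxypeptidase SCPEP1 (r = 0.77, 0.75 and 0.75), and CTSH most like SNX2, the proton channel HVCN1 and TBC1D9 (r = 0.72 each).

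Other genes of the pathway were read from 4 lists, of other cathepsins and related proteases, cystatins and other inhibitors, lysosomal membrane proteins, hydrolases and sorting factors, and MHC class II presentation. Of their 74 genes, 59 have a probe set of their own. Against hematoma none passed (limma) of 7 other proteases, 4 inhibitors, 30 lysosomal genes and 6 class II genes, of which 2, 1, 4 and 0 had an unadjusted p under 0.05. Among them was CTSF, a cysteine cathepsin, named after its values were seen. It averaged 9.30 ± 0.29 in hemangiosarcoma lines, against 8.21 ± 0.87 in hematoma cultures (SD), with no overlap (difference 1.08, limma adjusted p 0.237). The share of all probe sets with an unadjusted p under 0.05 was not counted, so these counts show neither an excess nor a lack. Against osteosarcoma, 1 of 7 other proteases fell in hemangiosarcoma, CTSA (-1.48, limma adjusted p 8.68e-04), a carboxypeptidase that protects lysosomal galactosidase and sialidase. Of 29 lysosomal genes, 5 were lower (6.89% of all probe sets were), with GM2A (-2.06, adjusted p 0.0357) and NPC2 (-1.69, adjusted p 0.00239) the most, and 2 were higher (9.46% of all were), MCOLN1 (1.44, adjusted p 0.0435), a calcium channel, and CD63 (0.41, adjusted p 0.0330), a tetraspanin. None of 4 inhibitors passed. DLA-DMB, which loads class II with peptide, was lower (-0.75, adjusted p 0.0297), the only call among 6 class II genes.

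Against leukemia and lymphoma, 9 of 11 class II genes were lower in hemangiosarcoma lines and none higher, with a list median of -5.04, where 11.4% of all probe sets were lower. The largest differences were in DLA-DRA (-9.04, limma adjusted p 3.26e-14) and CD74 (-8.84, adjusted p 2.59e-14), the chain that CTSS trims. Golden retriever lines averaged 4.45 ± 0.12 (SD, n = 6) for CD74, below the array medians, as was DLA-DRA, so that the size of these differences is not well resolved, and leukemia and lymphoma arrays 13.29 ± 1.09 (SD, n = 16). Of 30 lysosomal genes, 7 were higher (14.6% of all probe sets were), led by ASAH1 (3.50, adjusted p 8.51e-10), the acid ceramidase, and MITF (3.12, adjusted p 1.68e-07), a transcription factor of the lysosomal gene program, and 1 was lower, the mannosidase MAN2B1 (-2.48, adjusted p 3.59e-08). Among 7 other proteases, the cysteine cathepsin CTSF was higher (2.33, adjusted p 2.9e-05), and CTSW (-4.42, adjusted p 2.8e-04), a protease of cytotoxic lymphocytes that averaged 4.14 in the lines, below the array medians, and NAPSA (-2.56, adjusted p 3.19e-06) were lower. Of 7 inhibitors, SERPINB6 (3.81, adjusted p 2.05e-07) and CSTB (2.03, adjusted p 1.52e-06), a cytosolic cystatin, were higher and CST6 (-0.98, adjusted p 8.53e-04) was lower.

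Between the lymphomas, 9.14% of all probe sets were higher and 9.32% lower in DLBCL. Of 7 inhibitors tested, 4 were lower in DLBCL, CSTA by the most (-5.18, limma adjusted p 0.00108). Next was CST7 (-2.70, adjusted p 4.22e-05), the cystatin of cytotoxic cells that acts on CTSC. SERPINB8 was higher (2.26, adjusted p 0.00101). CSTA averaged 4.11 ± 0.93 (SD, n = 6) in DLBCL and 9.29 ± 2.28 (SD, n = 6) in TZL, with no overlap. The DLBCL means of CSTA and CST7 (5.08) lay below the array medians, so that the size of either difference, and their order, is not well resolved. Of 7 other proteases, CTSO was higher in DLBCL (1.94, adjusted p 0.00242), and CTSW (-2.86, adjusted p 0.0335) and CTSF (-1.04, adjusted p 0.0397) were lower. NAPSA, an aspartic protease, gave 0.56 (adjusted p 0.179), but its second probe set was higher by 2.25 (adjusted p 9.39e-04). Of 30 lysosomal genes, 6 were lower (9.32% of all probe sets were), with NEU1 (-1.59, adjusted p 0.00536), a sialidase, and ARSA (-1.58, adjusted p 5.64e-04), a sulfatase, the most, and SCARB2 was higher (1.25, adjusted p 0.0367). None of 11 class II genes passed, with a list median of -0.10. The T cell marker list averaged 8.23 to 8.96 in DLBCL and 11.02 to 11.70 in TZL, and the B cell list 8.64 to 9.13 in DLBCL and 6.60 to 8.81 in TZL, and their part in these differences was not tested.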

How the data were processed

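The 34 arrays were grouped by the tumor type and breed in the labels. Per the deposited notes, the authors derived the log2 values by RMA with affy. Versions, and whether all arrays were normalized in 1 run, are not given in the sources used here. The methods mention a sample hybridized to 2 chips, which the labels do not single out. RMA pulls low signals together, which understates large differences. Symbols came from the array annotation, and 175 control and reporter probe sets were left out. A probe set entered a comparison when the number of arrays on which it exceeded the array median was no less than the size of the smaller group. Each comparison was fitted with limma (version 3.58.1, R version 4.3.3), p values were adjusted by Benjamini-Hochberg over all probe sets tested, and the fit was tested on simulated data. Correlations used 100000 permutations (scipy 1.17.1).

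The adjusted p threshold was that of the study for hematoma (0.1). For leukemia and lymphoma it was 0.001, which the study used for hemangiosarcoma against all 21 other tumors together, a comparison run here as an alternative. It was 0.05 otherwise. Neighbors in an order of levels were called apart where the gap of their means exceeded the larger SD. Named were all members, the 2 called genes per list and direction with the largest differences, and the 3 genes most like each member, with exceptions marked. Members and lists were chosen with earlier results of these data known. Alternatives were no filter, other normalizations, variance models, weights, samples and probe sets, and leaving out each array. The number of arrays limits the precision. The p values measure the spread between dogs' arrays, and no batch is recorded in the labels.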

Additional observations from a re-analysis of the deposited data

Results flagged for a closer look

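Of 32 sets of 4 to 10 arrays tested for a far lowest or highest value, 2 stood out, and chance gives about 1 in 20. The CTSB level of the TZL array Fire was 11.04, and the other TZL arrays had 12.04 to 12.57. Fire also had the lowest TZL level of CTSC, CTSD, CTSH, CTSS, CTSZ and LGMN. The CTSK level of the TZL array Thunder was 7.65, and the other TZL arrays had 8.89 to 9.43. Both arrays are those with the high 3′ minus 5′ actin control values among TZL (2.51 in Fire and 3.11 in Thunder), and its part in these values was not tested.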

How the results depend on the processing

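No member was called against hematoma under any alternative. Against osteosarcoma, 2 members were called, 5 with array weights and 5 with all 10 hemangiosarcoma lines, 3 (CTSD added) with quantile normalization and with the second probe set, and 1 to 3 when 1 array was left out. CTSZ was called under every alternative, and CTSS under every one except leaving out ChadG6, Frog, Journey or OSCA75. Against leukemia and lymphoma, 4 members were called, 1 with all 21 other tumors, 5 (CTSZ added) with all 34 arrays in 1 fit and with the 13 lymphomas, 6 (CTSB and CTSZ added) with array weights, and 3 to 4 when 1 array was left out. Between DLBCL and TZL, 1 member was called, 0 with no filter (CTSK adjusted p 0.0574), 2 with quantile normalization, the trend and robust prior, array weights, all 34 arrays in 1 fit, the second probe set or the MZL array added, and 0 to 2 when 1 array was left out. CTSK was called in 4 of 12 fits that left out 1 array.

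Uncalled differences changed sign in a few genes. Against hematoma, CTSH was 0.29 without ChadG4 and Dal4 and -0.81 to 0.53 when 1 array was left out, CTSK -1.18 to 0.47 when 1 array was left out, and LGMN 0.026 without ChadG4 and Dal4, 0.11 with the 6 golden retriever lines only and -0.40 to 0.035 when 1 array was left out. Between DLBCL and TZL, CTSD was -0.33 by the second probe set, -0.094 with the MZL array, -0.32 without Chieftain, Thunder and Fire (added after seeing the data) and -0.30 to 0.39 when 1 array was left out, and CTSS -0.0035 to 0.33. The cause of these changes was not tested. No paired analysis was possible, since the groups compared hold different dogs. With 3 hematoma cultures only large differences could pass, and levels near the array median, as for CTSS in the lines, are poorly resolved.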

Other observations

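The array has 2 probe sets assigned to LOC403708, which RefSeq lists as a pseudogene with CTSL, CTSL1 and CTSL2 among its older names. They are not probe sets of CTSL by symbol, carry a suffix that marks possible matches to several transcripts, and were looked at after their values were seen. Their levels split the arrays without overlap. The first was 9.30 to 10.33 in the 10 hemangiosarcoma lines, 9.75 to 10.02 in the 5 osteosarcoma lines and 9.28 to 10.73 in the 3 hematoma cultures, and 5.65 to 6.85 in the 16 leukemia and lymphoma arrays. The second was 8.83 to 10.40 in hemangiosarcoma lines and 3.04 to 5.84 in leukemia and lymphoma, where it lay above the array median on 1 array only, so that the size of its difference is not well resolved. Golden retriever hemangiosarcoma lines were higher than leukemia and lymphoma by 3.47 for the first LOC403708 probe set and by 5.50 for the second (limma adjusted p 1.02e-13 and 3.6e-12). They differed by -0.17 and 0.04 from osteosarcoma (adjusted p 0.552 and 0.933), and all 10 lines by -0.19 and -0.10 from hematoma (adjusted p 0.846 and 0.939). Whether LOC403708 probe sets read CTSL transcripts was not tested.

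The ALL array, Rascal, had the lowest CTSZ (7.71) and LGMN (6.44) levels of all 34 arrays and lower CTSS (9.92) and CTSC (9.61) levels than every other leukemia or lymphoma array. It is the only array of its label, and its 3′ minus 5′ actin control was 3.82.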
